A study of Mus musculus with 4 samples.

Results

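The cytosolic ribosomal protein genes were represented by 48 of the 12422 probe sets tested, or 34 of the 8251 genes named from probe sets with 1 gene symbol. Members were taken by symbol, as Rpl or Rps followed by a digit or Rplp followed by a digit, with the Rps6k kinases and entries marked -ps left out. The large subunit held 22 probe sets of 17 genes and the small subunit 26 probe sets of 17 genes. RNA came from mouse embryonic fibroblasts of mixed FVB and 129Sv background that all lacked their own Men1, which encodes menin, a nuclear protein that holds histone methyltransferase complexes together. The Men1-complemented group (2 arrays) had received Men1, and the vector group (2 arrays) had received vector. Cells had been harvested 24 h after plating, in medium with 10% serum. The labels do not name the vector, the promoter, or the number of clones or cultures, so p-values measure only how far these arrays spread, which may be technical variation. The series addressed which genes lie downstream of menin.

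The cytosolic ribosome is built from a large subunit, which joins amino acids, and a small subunit, which reads the messenger RNA. Each ribosomal protein is needed in about equal number, and their genes are known for high, coordinated expression in growing cells. Many of their messenger RNAs begin with a pyrimidine tract through which translation is tuned to growth signals. Mammalian genomes also carry many processed pseudogenes of these genes, so a probe set may read more than its named gene.

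No ribosomal protein gene was called different between the groups. None of the 48 probe sets passed the adjusted p threshold of 0.05 by limma, and 0% of all probe sets passed it. At an unadjusted p under 0.05 there were 0 members, beside 1.88% of all probe sets. Differences are given as Men1-complemented minus vector on the log2(signal + 16) scale, which understates changes of dim probe sets. They ranged from -0.23 to 0.34 in the large subunit and from -0.55 to 0.22 in the small subunit, with medians of -0.06 and -0.04 beside -0.01 over all probe sets. The limma adjusted p was 1 for every member, and the smallest unadjusted p was 0.102. With 2 arrays against 2, an exact permutation test of a single value cannot give a two-sided p below 0.333.

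Facts of the arrays bear on how these values can be read. Signals of the Men1 probe set were 18.8 and 22.5 with Men1 against 18.1 and 29.5 with vector, for a log2 difference of -0.11 (standard error, SE, 0.22). Its place in the deleted or returned part of the gene is unknown here, so it cannot check the labels. Hybridisation controls added to each sample were lowest on vector replicate 1 and highest on vector replicate 2, with CreX signals of 7506.6 and 11267.5 against 8778.5 and 8946.2 on the Men1-complemented arrays. The ratio of the Gapdh signal at the 3′ end to that at the 5′ end was 0.85 and 0.804 with Men1, above the 0.782 and 0.743 with vector, without overlap. The same ratio for Actb was 1.18 and 1.09 with Men1 and 1.15 and 1.08 with vector, which overlap. Of 14 fibroblast markers, 12 were above the control level explained below, among them Col1a1 and Fn1, while Thy1 was at control level throughout and Vim read between 24.2 and 37.5. Their summed signal was 11581.9 to 13212.3 with Men1 and 11734.4 to 13486 with vector. Epithelial, endothelial, blood and neural markers were at control level in both groups for 2 of 5, 2 of 4, 2 of 3 measured and 2 of 4. Above the controls in each group were 2, 1, 1 and 2 of them. Among these, Tubb3 read between 770.2 and 1193.6 and Cdh1 between 93.7 and 165.2. The summed signal of 4 skeletal muscle markers was 232.2 and 234.9 with Men1, beside 317.6 and 353.5 with vector. Of these markers, Myog and Tnni1 were lower with Men1 without overlap, while the groups overlapped for Myod1 and Acta1. The part of these markers in the ribosomal protein values was not tested. In bulk RNA, fewer cells of a type and less RNA per cell cannot be told apart.

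The annotated starts of member genes shared short motifs. The sequences shown are those of Rpl6 and Rps7, which had the lowest difference of the large subunit and the second lowest of the small among bright probe sets, those with a mean signal of at least 50. Rplp0 and Rps10 are shown beside them as members with differences nearer 0. RefSeq promoter sequences (GRCm38.p6) were found for 27 of the 34 genes, with 36 starts. Those printed run from 100 bases before to 20 bases from the start, 5′ to 3′ on the gene's strand. They lie at chr5:121204401-121204520 (plus strand), chr5:115559367-115559486 (plus strand), chr12:28635934-28636053 (minus strand) and chr17:27635225-27635344 (minus strand). Capitals mark every match, on either strand, to the motifs searched.
Rpl6: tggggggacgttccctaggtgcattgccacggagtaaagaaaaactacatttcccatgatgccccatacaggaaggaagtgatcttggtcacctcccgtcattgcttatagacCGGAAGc
Rplp0: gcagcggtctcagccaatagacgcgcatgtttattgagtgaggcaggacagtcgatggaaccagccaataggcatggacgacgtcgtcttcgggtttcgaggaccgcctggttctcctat
Rps7: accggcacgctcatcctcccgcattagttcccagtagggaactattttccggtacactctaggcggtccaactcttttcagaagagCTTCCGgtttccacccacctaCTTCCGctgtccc
Rps10: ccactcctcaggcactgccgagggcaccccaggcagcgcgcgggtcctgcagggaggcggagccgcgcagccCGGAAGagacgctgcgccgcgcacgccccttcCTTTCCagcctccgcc

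The first motif was CTTCCG, the core of sites for ETS factors such as GABP. It was found on either strand in 52.8% of member windows of 300 bases and in 16.9% of the 32851 windows of all genes. ATGGCG, the core of YY1 sites, was in 41.7% of member windows and 8.93% of all windows. CTTTCC, a pyrimidine-rich stretch of the kind that opens many ribosomal protein messenger RNAs, was in 52.8% and 26.6%. Matches on either strand and anywhere in the window were counted, so these are not shares of messenger RNAs that open with a tract. None of the motifs contains another. Rps7 held CTTCCG at 2 places in the printed stretch, Rps10 held CGGAAG and CTTTCC, Rpl6 held CGGAAG and Rplp0 held none. The matches describe the letters of these windows only, and the expression values do not test them.

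Signals of member probe sets were divided at a set mean of 50 into bright and dim, a limit at which the values show no gap. The means nearest to it were 49.45 and 57.55. Of the 48, 26 had a mean signal of at least 50 over the 4 arrays, 13 in each subunit, and 20 of these were in the 10% of probe sets with the highest mean signal. The other 22 had means from 5.1 to 49.4. As a floor served 19 control probe sets without matching RNA in the samples, with maxima of 25.9 and 27.4 in the Men1-complemented group and 15.9 and 20 in the vector group. Members not above the maximum on either of a group's arrays are termed at control level in it. This held for 10 members in both groups and for 8 with Men1 only. The maxima were higher with Men1, so the count of 8 is not read as lower signals. Among these 8, a probe set of Rps4l had means of 19.4 with Men1 and 18.35 with vector. The other 30 were above the controls in each group. Of the 34 genes, 24 had a bright probe set. The remaining 10 were Rpl32, Rpl35a, Rpl38, Rpl39, Rpl39l, Rps14, Rps15, Rps20, Rps27l and Rps4l. A signal at control level is not read here as absence of the messenger RNA. Per the labels' protocol both random and poly(T) primers were used, and how each signal depends on the labelled stretch of a transcript was not tested.

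**Figure D1:**
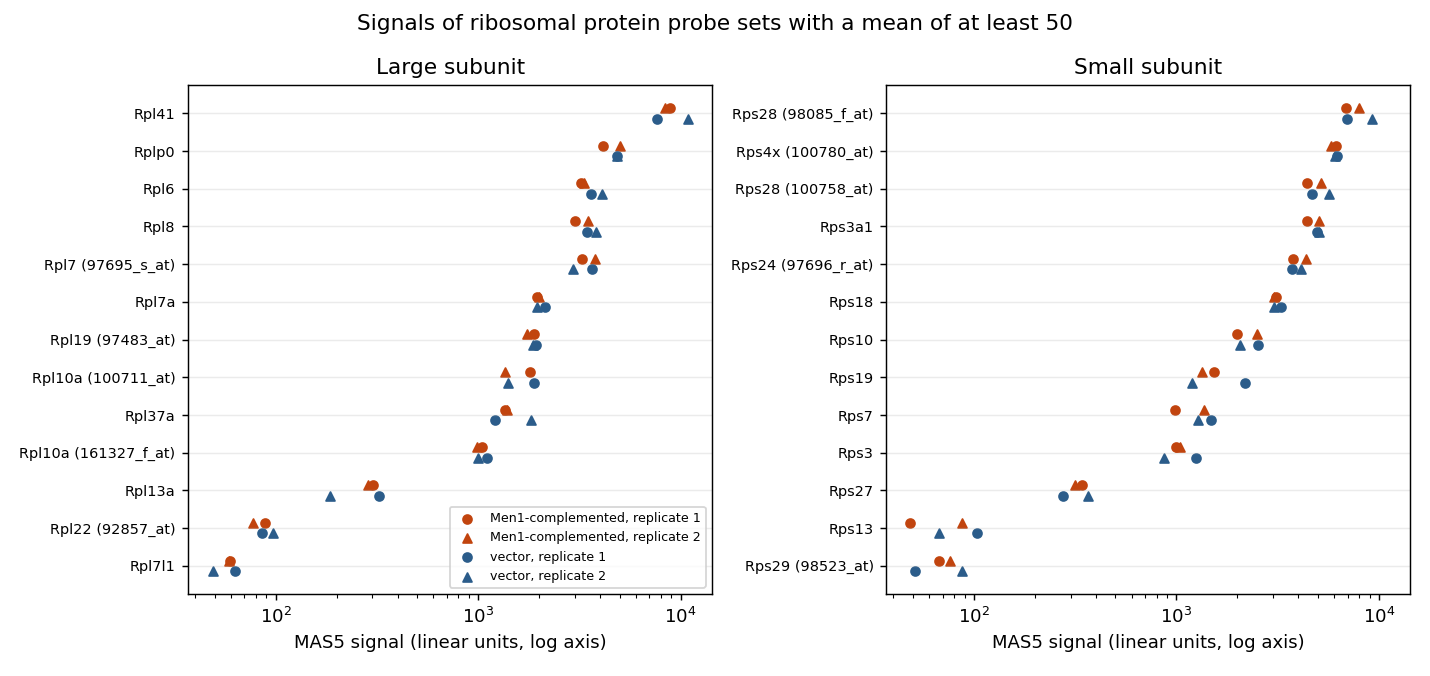
MAS5 signal (horizontal log axis, linear units) of the 26 ribosomal protein probe sets with a mean of at least 50, large subunit at left and small subunit at right. Each point is 1 array, with the group by colour and the replicate number by shape. Only for Rpl6 do both Men1-complemented arrays lie to the same side of both vector arrays.

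Among the 13 bright probe sets of the large subunit, 10 were lower with Men1 and 3 higher, with a median of -0.07. Rpl6, a protein of the outer surface of the subunit, read 3240.2 and 3329.4 with Men1, beside 3628.8 and 4104.6 with vector. It was the only bright member whose groups did not overlap, with a log2 difference of -0.23 (SE 0.18, 95% interval -0.69 to 0.23, limma adjusted p = 1). Means were 3285 ± 63.1 against 3867 ± 336 (SD, n = 2 each). Rpl8, which lies beside the peptidyl transferase centre, read 3006.7 and 3479.5 against 3436.7 and 3815.9, a difference of -0.16 in log2 signal (SE 0.19). Its groups overlapped by a small margin, since the higher Men1-complemented array passed the lower vector array.

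Rplp0 carries the acidic stalk that recruits translation factors. It read 4142.6 and 5044.3 with Men1, beside 4868.1 and 4845.2 with vector, with a log2 difference of -0.09 (95% interval -0.58 to 0.41). The vector arrays lay between the Men1-complemented ones. Its stalk partners Rplp1 and Rplp2 had no probe set naming them alone and were not analysed here, nor were Rpl3, Rpl4, Rpl5, Rpl10 and Rpl11 for the same reason. Rpl41, the shortest ribosomal protein, had signals of 8878.2 and 8412.7 against 7665.8 and 10920.4. The vector arrays enclosed both Men1-complemented arrays, and vector replicate 2 was also the array with the highest hybridisation controls, whose part in this spread was not tested.

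Rpl10a, part of the mobile stalk beside the exit site of transfer RNA, had both of its probe sets among the bright ones. They read 1794.5 and 1359 against 1896.2 and 1400.8, and 1048.7 and 984.1 against 1103.7 and 1000.8. In both, replicate 2 was lower than replicate 1 in each group, and the log2 differences between groups were small, at -0.06 and -0.05. Rpl19, which forms a bridge to the small subunit, read 1878.3 and 1739.3 against 1931.4 and 1858.5 in its bright probe set, a difference of -0.07 in log2 signal. Rpl7a read 1954.1 and 2009.7 against 2131.8 and 1957.7 (-0.04). Rpl37a, a zinc-binding protein, read 1364.6 and 1394.7 against 1216.3 and 1828.7 (-0.11, SE 0.25). For Rpl37a the Men1-complemented arrays were close together while the vector arrays differed by 0.58 on the log2 scale.

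The 3 bright members of the large subunit with a difference above 0 were Rpl13a, Rpl7 and Rpl7l1. Rpl13a, which also serves in a complex that silences inflammatory messenger RNAs, read 302.1 and 287.1 with Men1, beside 322.5 and 185 with vector. Its log2 difference of 0.25 (SE 0.29) rested on vector replicate 2, and it was -0.12 without that array. Rpl7 read 3268.2 and 3788.6 against 3648.2 and 2957.9, a difference of 0.10 in log2 signal, in a probe set whose name marks sequence shared between transcripts. Names of other bright probe sets, among them those of Rpl41 and Rps13, also carry a suffix. What else such probe sets read was not tested. Rpl7l1, which meets the symbol rule but is a factor of ribosome assembly and not a structural protein, differed by 0.07. Rpl22, a protein also known for a role in lymphocyte development, read 89 and 77.7 against 85.3 and 97.3 in its brighter probe set, a difference of -0.11 in log2 signal.

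For the small subunit, 10 of the 13 bright probe sets were likewise lower with Men1 and 3 higher, with a median of -0.04. Rps7, known to bind the p53 regulator Mdm2, read 986.3 and 1373.4 with Men1, beside 1488.6 and 1276.1 with vector, a difference of -0.24 in log2 signal (SE 0.24, 95% interval -0.85 to 0.37). One array of each group lay within the range of the other. Rps19, a gene mutated in Diamond-Blackfan anaemia, read 1525.9 and 1332.6 against 2189.4 and 1193.7, a difference of -0.18 in log2 signal (SE 0.33). Vector replicate 1 alone was high, and without it the difference was 0.25. Rps13 read 48.5 and 87 against 103.1 and 67.1 (-0.29, SE 0.32). This was the lowest difference of a bright small subunit member, while replicate 2 minus replicate 1 was 0.68 with Men1 and -0.52 with vector.

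Other small subunit members lie along the path of the messenger RNA or face the large subunit. Rps3, at the entry channel, read 989.8 and 1042.8 against 1251.7 and 871.8, a difference of -0.04 in log2 signal. Rps10, also near the entry, read 1997.3 and 2501.3 against 2536.1 and 2063.9 (-0.03). For Rps3 the vector arrays enclosed both Men1-complemented arrays, and for Rps10 1 vector array lay within the Men1-complemented range and the other above it. Rps28, near the exit channel, had 2 bright probe sets that read 6867.5 and 7945.5 against 6954.6 and 9253.4, and 4394.1 and 5163.6 against 4695 and 5684.4. Each differed by -0.12, and in each replicate 2 was above replicate 1 in both groups. Rps18, which touches the large subunit from the head of the small one, read 3097.5 and 3027 against 3269.1 and 3019.8 (-0.04). Rps3a1 read 4424.5 and 5040.4 against 4935.1 and 5063.9 (-0.08).

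The 3 bright small subunit probe sets above 0 were those of Rps24, Rps27 and Rps29. Rps24 read 3771.5 and 4343.5 with Men1, beside 3716.7 and 4131.6 with vector, a difference of 0.05 in log2 signal. Rps27, a zinc-finger protein, read 340.1 and 315.3 against 275.4 and 367.8 (0.04). Rps29, another zinc-binding protein, read 67.5 and 76 against 51.3 and 87.4 (0.07). In each the groups overlapped.

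**Figure D2:**
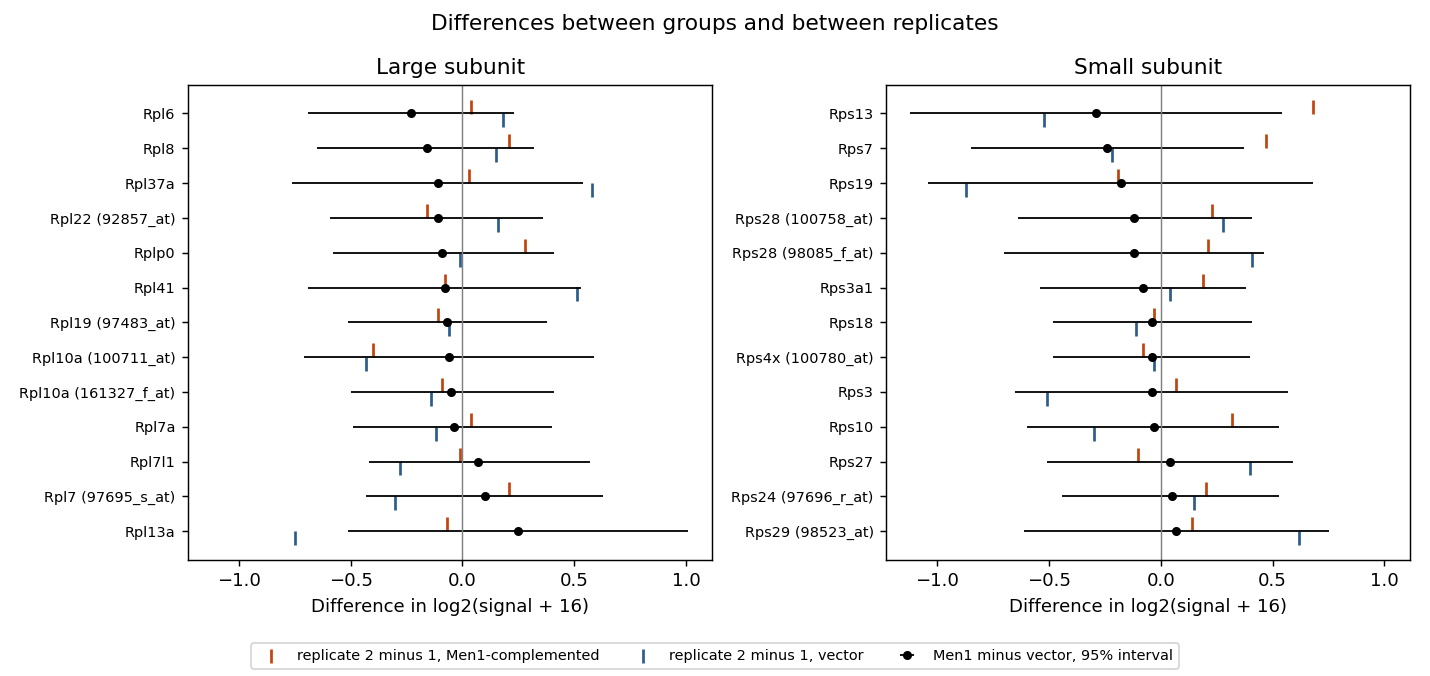
Difference in log2(signal + 16), Men1-complemented minus vector, with its 95% interval from limma (black), for the 26 probe sets with a mean signal of at least 50. Coloured ticks give replicate 2 minus replicate 1 within each group. Every interval includes 0.

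Differences between group means were smaller than those between single arrays of a group. Means vary less than single arrays even where nothing differs, so this order alone is no result about the members. Over the 26 bright members the median absolute difference was 0.08 between groups. Within groups it was 0.15 with Men1 and 0.28 with vector. For 19 of the 26 (73.1%) the group difference was below that between the vector arrays in size, near the 76.1% of all probe sets with such means. The corresponding medians over all 6489 probe sets with a mean of at least 50 were 0.12, 0.20 and 0.32. The median SE of a bright member was 0.20, and a miss of the threshold at this precision is no evidence of equal levels.

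A small tilt towards lower signals with Men1 was seen in counts of direction. Of the 26 bright members 20 (76.9%) had a difference below 0, where 51.2% of all probe sets with a mean of at least 50 and 52.8% of all probe sets did. Within the 10% of probe sets with the highest mean signal, 18 of 20 members were lower, 9 of 10 in each subunit, beside 45.1% of that class. Counts of groups without overlap did not follow this tilt. Among the bright members 1 was lower without overlap (3.85%) and 0 were higher, where 11.4% and 10.5% of probe sets of that class were. Over all 48 members 3 were lower without overlap and 2 higher, where 11.7% and 10.4% of all probe sets were. These members share the same 4 arrays and are not independent, so their number adds no replication.

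The tilt was uneven over the arrays. Of the 20 members in the brightest 10%, 17 were lower on Men1-complemented replicate 1 than on vector replicate 1, beside 59.9% of that class. Against vector replicate 2, Men1-complemented replicate 1 was lower for 12, beside 41.8%. Men1-complemented replicate 2 was lower for 11 against vector replicate 1 and for 11 against vector replicate 2, beside 54.8% and 37.4%. These pairs share arrays. Of the 20 bright members that were lower, 13 to 18 remained lower when single arrays were left out, with 13 without vector replicate 1. Over all 26 bright members, 17 and 20 were lower without Men1-complemented replicates 1 and 2. Without vector replicates 1 and 2 there were 16 and 19. The median over all large subunit members was -0.20 without vector replicate 1, and -0.01 without Men1-complemented replicate 1 or without vector replicate 2. That over all small subunit members was -0.0040 and -0.08 without Men1-complemented replicates 1 and 2, -0.13 without vector replicate 1 and 0.05 without vector replicate 2. These medians include dim members. Over bright members alone they ranged from -0.09 to -0.03 in the large subunit and from -0.08 to -0.0028 in the small. The median over all probe sets tested also moved. It was -0.07 without vector replicate 1 and 0.05 without vector replicate 2. Without Men1-complemented replicates 1 and 2 it was -0.01 and -0.02. The hybridisation controls differed most between the vector arrays, and the Gapdh ratio differed between the groups while the Actb ratio overlapped. Their part in the tilt was not tested.

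**Figure D3:**
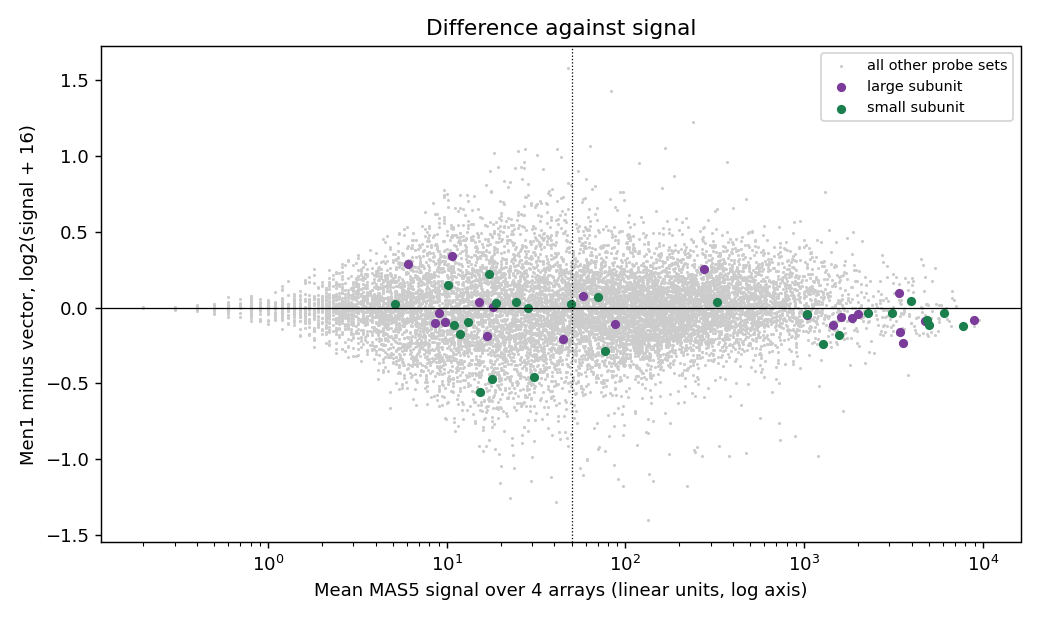
Difference in log2(signal + 16), Men1-complemented minus vector, against the mean MAS5 signal over 4 arrays (log axis) for 12422 probe sets, with large and small subunit members in colour and a dotted line at a mean of 50. Of the members, 26 lie to the right of that line and 22 to its left, and 18 of the 20 in the brightest 10% lie below 0.

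Probe sets of the same gene often disagreed in signal. Of 10 genes with several probe sets, Rps4x, the X-linked form of a small subunit protein, had 5. Its brightest read 6148.4 and 5829.2 with Men1, beside 6213.3 and 6065.7 with vector, a difference of -0.04 in log2 signal (SE 0.17). The others had means of 5.05 to 30.8. All of these were at control level with Men1. The lowest difference among them was -0.47, with groups that overlapped. The dim probe set with the highest mean read 24.1 and 22.2 against 29.6 and 47.3. With its Men1 signals raised to the control maxima of those arrays, the point estimate was 1.26-fold lower with Men1. That fold leaves out the spread between arrays and is no lower limit. The log2 difference of this probe set was -0.46 (95% interval -1.05 to 0.13, limma adjusted p = 1), with an interval that includes no change. The bright probe set of the same gene did not show this difference. Rpl7 also had a second probe set, at control level in both groups, which read 14.9 and 12.4 against 3.9 and 11.6 and gives no fold. Means of the 2 probe sets of Rps24 were 28.55 and 3991, and those of Rpl19 were 15.22 and 1852.

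Such a fold was computed only for the 8 dim members at control level with Men1 only. Among these 8, no probe set other than the Rps4x one above gave a fold above 1. Rps14, a protein of the platform of the small subunit, read 12.9 and 5.5 with Men1, at control level, and 14 and 28.7 with vector. Its log2 difference of -0.55 (SE 0.28) was the lowest of all members, and it concerned signals at or near the controls. Rps20 read 19.2 and 20.1 against 13.2 and 16.1, at control level in both groups. Of the 22 dim members 12 were lower and 10 higher, with a median of -0.02. Among paralogs, Rpl39l, known from testis, and Rps27l, a p53 target, were at control level on all 4 arrays. Rps4l read between 13.5 and 29.6. Fau, the precursor of a small subunit protein outside the symbol rule, read 32.1 and 16.6 against 14.1 and 28.8, which overlap.

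A further 39 probe sets listed a ribosomal protein symbol together with other symbols, and are not named. Of the 34 of these with a mean of at least 50, 24 were lower and 10 higher with Men1, with a median of -0.05 that was close to that of the bright members (-0.06). Groups did not overlap for 8, 7 lower (20.6%) and 1 higher, beside 11.4% and 10.5% of their signal class. None reached an unadjusted p under 0.05.

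Among genes that build ribosomes more were higher than lower with Men1. Of 75 listed biogenesis genes 64 were measured, 47 higher and 17 lower with Men1, with a median of 0.12 beside -0.01 over all probe sets. The share lower was 26.6%, beside 52.8% of all probe sets and 51.2% of those with a mean of at least 50. None passed the adjusted threshold, and only Rrp1b, a nucleolar processing factor, reached an unadjusted p under 0.05. It read 413.5 and 464.7 against 316.9 and 295 (log2 difference 0.50, SE 0.18, limma adjusted p = 1). Utp20, a factor of early small subunit assembly, read 591 and 616.9 against 500.2 and 407.5 (0.41), and Polr1a, the largest subunit of RNA polymerase I, 474.1 and 481.5 against 391.3 and 353.4 (0.35). Groups of these genes did not overlap. Over the list this held for 14 of 64 genes higher and 5 lower with Men1, beside 10.4% and 11.7% of all probe sets. Taf1b, of the polymerase I initiation complex, and Exosc10, of the RNA exosome, stood at -0.46 each. The list's median was 0.01 without vector replicate 2, beside 0.05 over all probe sets.

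Translation factors were balanced, with 24 of 45 measured higher, 21 lower and a median of 0.0043 that ranged from -0.06 to 0.10 without single arrays. Eef1a1, the elongation factor that delivers transfer RNA, read 8253.7 and 8817.2 against 8142.4 and 10545.9 (-0.12). Its messenger RNA, like that of Tpt1 (-0.02), begins with a pyrimidine tract as those of ribosomal proteins do. Eif3a, a subunit of the scaffold of initiation, read 986.7 and 1154.1 against 805.7 and 807.6 (0.40, SE 0.18), without overlap. Of 61 mitochondrial ribosomal proteins 44 were lower (72.1%, beside 52.8% of all probe sets) and 17 higher, with a median of -0.05. It turned to 0.01 without Men1-complemented replicate 1 and was -0.09 without Men1-complemented replicate 2 or vector replicate 2. Among them Mrpl16 read 98.2 and 102.4 against 143.5 and 153.8 (-0.50, SE 0.17), at an unadjusted limma p of 0.0338 and an adjusted p of 1. No gene of the translation factor or mitochondrial list passed the adjusted threshold. Differences between these lists and the ribosomal protein genes were not tested.

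**Figure D4:**
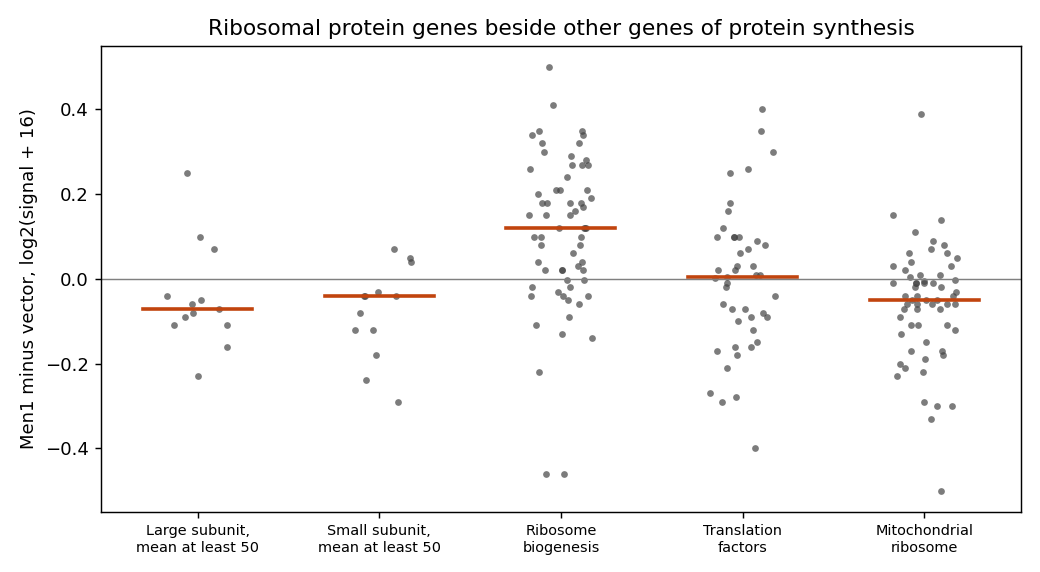
Difference in log2(signal + 16), Men1-complemented minus vector, for single probe sets (points) and their median (bars), in bright ribosomal protein members of each subunit and in 3 other gene lists with 1 probe set per gene. Medians were -0.07, -0.04, 0.12, 0.0043 and -0.05 from left to right.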

How the data were processed

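RNA of 4 fibroblast samples was hybridised to 1 Affymetrix array each. The authors deposited linear intensity per probe set. The submitters' processing notes name Affymetrix Expression Console and the MAS5 algorithm, with no version or scaling target given in the sources used here. Their 2% trimmed means were 150.07 to 150.08, so no further scaling was applied, and a change in all RNA per cell cannot be seen. The 66 control probe sets were left out, and 12422 were tested. Genes were named from the platform annotation, and the mouse gene table of GRCm38.p6 held the gene IDs of all 48 members.

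Signals were analysed as log2(signal + 16) by a moderated linear model (limma 3.58.1, functions lmFit and eBayes, R 4.3.3). Tests were two-sided, left 2 residual degrees of freedom, and were adjusted by Benjamini-Hochberg over all probe sets. The fit was tested on simulated data. The number of arrays limits the precision. Detection calls were not used here. Members and lists were chosen with earlier results of these data known. Other lists used the probe set with the highest mean per gene. Named were the 5 lowest and 5 highest differences per subunit, members fixed by role, genes with several probe sets and the 3 lowest and highest of each list, not all of which are described. Alternatives changed the pseudocount, normalization, signal filter, variance model, control probe sets, membership, replicate block and single arrays. The promoter motifs were chosen for this description.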

Additional observations from a re-analysis of the deposited data

How the results depend on the processing

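No probe set passed the adjusted threshold by limma under any alternative run. At an unadjusted p under 0.05 there were 233. A separate fit on the 6489 probe sets with a mean of at least 50 gave 67. There were 297 with the replicate block, and 121 to 1031 without single arrays. Replicate numbers are not tied to a shared culture by the labels. Over probe sets, replicate 1 minus replicate 2 correlated at 0.258 between the groups, and the block changed no call. Members at an unadjusted p under 0.05 numbered 0, but 1 with quantile normalization (a dim Rps4x probe set, 2.08% of members beside 2.36% of all probe sets) and 0 to 3 without single arrays. Without vector replicate 1 these were Rpl13a (0.63), Rps14 (-0.84) and the same Rps4x probe set (-0.69), 6.25% of members beside 8.3% of all probe sets. Without vector replicate 2 they were Rps19 (-0.61) and the dim Rpl7 probe set (0.57), 4.17% beside 4.5%. These were named after their values were seen.

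Lower members numbered 15 of 22 in the large subunit (11 to 15 without single arrays) and 17 of 26 in the small subunit (12 to 20). With 1 probe set per gene the small subunit had 11 of 17, and with a mean of at least 50 it had 10 of 13, by fewer probe sets. With probe sets of several symbols, added after the data were seen, lower members were 33 of 50 and 26 of 37. Without single arrays the median over all members, dim ones included, ranged from -0.20 to -0.01 in the large subunit and from -0.13 to 0.05 in the small. The median over all probe sets tested then ranged from -0.07 to 0.05.

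Single differences changed sign without 1 array in many members. The ranges were -0.85 to 0.43 for the dim Rpl22 probe set, -0.40 to 0.18 for Rpl37a, -0.23 to 0.05 for Rplp0, -0.34 to 0.17 for Rpl41, -0.28 to 0.16 and -0.12 to 0.02 for Rpl10a, and -0.10 to 0.02 for Rpl7a. They were -0.07 to 0.21 for Rpl7l1, -0.05 to 0.25 for Rpl7, -0.12 to 0.63 for Rpl13a, -0.63 to 0.05 for Rps13, -0.61 to 0.25 for Rps19, and -0.25 to 0.02, -0.32 to 0.09 and -0.37 to 0.42 for the Rps28 probe sets. Further ranges were -0.18 to 0.01 for Rps3a1, -0.07 to 0.0022 for Rps4x, -0.30 to 0.22 for Rps3 and -0.09 to 0.02 for Rps18. They were -0.19 to 0.13 for Rps10, -0.16 to 0.24 for Rps27 and -0.12 to 0.20 for the Rps4l probe set with the higher mean. The ranges were -0.06 to 0.15 for the bright Rps24 probe set and -0.24 to 0.38 for Rps29. In other lists they were -0.06 to 0.75 for Mybbp1a, -0.21 to 0.44 for Mrpl11 and -0.20 to 0.48 for Mrpl42. The dim Rps24 probe set ranged from -0.37 to 0.37, and was 0.03 with a pseudocount of 1 and 0.02 with quantile normalization and with median centring. Rpl41 was 0.03 with quantile normalization. The cause was not tested.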
